A study of Homo sapiens with 12 samples.

Results

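The interferon-stimulated and RNA-sensing genes are a group of 49 human genes that includes nucleic acid sensors, their adaptors, the transcription factors downstream of them and the antiviral effectors that interferons induce. The list goes by gene name and applies no threshold to measured values, although it was drawn up with earlier results of these data known, and all 49 were found among the 57820 gene identifiers of the count tables. RNA was sequenced from G401, a human rhabdoid tumour cell line labelled SMARCB1(-/-), which lacks the SMARCB1 subunit of the SWI/SNF chromatin remodelling complexes. Doxycycline induced GFP, the control protein, or SMARCB1, and each cell state received the solvent DMSO or dBRD9-A, a small molecule degrader of BRD9 (a subunit of the non-canonical SWI/SNF complex), for 24 hours. The 4 groups are called GFP cells in DMSO, GFP cells in dBRD9-A, SMARCB1 cells in DMSO and SMARCB1 cells in dBRD9-A, with 3 replicates each. All groups share the line, its SMARCB1(-/-) genotype and an induced protein, so every result is from 1 tumour line and SMARCB1 is supplied from a transgene. The labels do not say that replicates were separate cultures, so p-values measure the spread between these samples, which may be technical.

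Cells detect viral RNA through helicases in the cytosol and a receptor in the endosome, and detect cytosolic DNA through enzymes that signal by way of STING1. These sensors act through adaptors on kinases that switch on IRF3 and IRF7, and these factors turn on interferon genes. Secreted interferon binds receptors on the same or neighbouring cells, and a complex built on STAT2 and IRF9 then binds the interferon-stimulated response element (ISRE) in the promoters of effector genes that block viral entry, translation or replication. Many effectors also have a basal level in cells that have met no virus. SWI/SNF complexes have been reported to take part in the induction of such genes, IFITM1 and IFITM3 among them.

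The ISRE core, written here as GAAA, any 2 bases and GAAA, was searched on both strands of the RefSeq promoters of build GRCh38.p14, each spanning 250 bases before to 50 bases after a gene's start. A gene was counted once if any of its listed promoters held a match. Promoters were listed for 37 of the 49 members, and 23 of these (62.2%) held a match, against 1195 of all 27305 genes (4.38%). No promoter was listed for IFIT2, MX2, OAS2, OASL, IRF3, IRF7, DHX58, CGAS, STING1, IFITM2, USP18 and TRIM22. The sites below are shown because they belong to members whose RNA differed in opposite directions between SMARCB1 and GFP cells, with ISG15, which did not pass the test, beside them. Each is 30 bases, read 5′ to 3′ on the strand that spells the core in this order, with the matched core in capitals.
OAS3 (chr12:112938321-112938350, + strand): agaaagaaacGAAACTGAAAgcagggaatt
PARP9 and DTX3L (chr3:122564322-122564351, + strand): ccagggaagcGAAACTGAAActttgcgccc
PARP14 (chr3:122680800-122680829, + strand): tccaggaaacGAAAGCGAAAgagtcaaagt
IFIT3 (chr10:89332425-89332454, - strand): ctcttgagggGAAACTGAAAcagaatctgt
TLR3 (chr4:186069142-186069171, - strand): cggcactctcGAAAGTGAAAgtaaagcttg
IFITM1 (chr11:314024-314053, + strand): acacttctgaGAAACTGAAAcgacagggga
IFITM3 (chr11:320876-320905, - strand): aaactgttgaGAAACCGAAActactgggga
IFI6 (chr1:27672288-27672317, - strand): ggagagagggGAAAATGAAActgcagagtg
ISG15 (chr1:1013380-1013409, + strand): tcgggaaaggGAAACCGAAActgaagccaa
The same 10 bases, GAAACTGAAA, occur in promoters of OAS3, PARP9, DTX3L, IFIT3 and IFIT5, which rose with SMARCB1 in DMSO. They also occur in those of IFITM1 and BST2, which fell, BST2 only slightly and with overlapping groups. Promoters of ISG20, tested without passing the threshold, and of IFI44, RSAD2 and SAMD9, with too few counts to test, hold them as well. PARP9 and DTX3L are divergent neighbours, and the site printed for them lies in the promoters of both.

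An ISRE core was present in 8 of 13 members with a promoter that were higher with SMARCB1 in DMSO (61.5%). It was present in 4 of 7 that were lower (57.1%), in 4 of 5 that were tested without passing the threshold (80%) and in 7 of 12 with too few counts to test (58.3%). The gamma-activated site core, TTC, any 3 bases and GAA, which reads the same on both strands, was found in 11 of the 37 members (29.7%) and in 9.38% of all genes. It occurred in IRF1, IRF9, TLR3, PARP14 and ZC3HAV1 among the higher members and in IFI35, BST2 and IFITM1 among the lower ones. A match is a description of letters and shows no binding.

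Libraries held 34.97 to 58.54 megacounts in genes (a megacount is 1e6 counts), and a count of 3, used as the floor of detection, corresponded to 0.0513 to 0.0858 counts per megacount (CPM). CPM values are not divided by gene length, so levels are compared between groups and not between genes. SMARCB1 itself had 0 to 2 counts in GFP libraries and 53033 to 110893 counts in the SMARCB1 libraries, as labelled. In SMARCB1 cells it averaged 1875 ± 59.4 CPM in DMSO and a lower 1307 ± 27.0 CPM in dBRD9-A (SD, n = 3). The part of this lower SMARCB1 level in the dBRD9-A results for SMARCB1 cells below was not tested. Of 13 markers found for blood, endothelial, plasmacytoid and fibroblast cells, 8 had at most 3 counts in every library, PTPRC, CD3E and CLEC4C among them at 0. Of the others, the blood marker ITGAM had 1 to 10 counts and the plasmacytoid marker IL3RA 0 to 16. PECAM1, an endothelial marker also listed, was not found by symbol. The summed marker level was nearly all CD68, a lysosomal protein, and ranged from 164 to 199 CPM in GFP libraries and from 58.3 to 68.2 CPM in SMARCB1 libraries. Endothelial markers were few but moved the other way. VWF had 0 to 5 counts in GFP libraries and 22 to 50 in SMARCB1 libraries, or 0.0521 against 0.742 CPM on average in DMSO and 0.00941 against 0.619 CPM in dBRD9-A. CDH5 was at 0 in all GFP libraries and had 3 to 10 counts in SMARCB1 libraries. The part of these differences in the results below was not tested. Each pair of replicates was further apart than counting noise allows (chi-square over its degrees of freedom 3.028 to 25.98). Exons of 18 members overlap another gene in GENCODE 29, 5 of them in sense, and without strand in the counting the reads of such pairs cannot be told apart. In such bulk RNA, fewer cells of a type and less RNA per cell cannot be told apart.

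With SMARCB1 in DMSO, 19 of the 49 members rose and 8 fell, in edgeR's quasi-likelihood test at an adjusted p under 0.05, while 5 did not pass the test and 17 had too few counts to be tested. The rises included the transcription factors IRF7 and IRF9, the adaptor STING1, the sensor TLR3 and the effectors OAS3, TRIM22 and PARP9, and the falls included IFITM1, IFITM2, IFITM3 and IFI6. The 27 members called are 84.4% of the 32 tested, where 65.0% of all 15750 genes tested were called (33.5% higher and 31.6% lower). The median log2 fold change fitted by edgeR, called the log2 ratio below, was 0.27 for the tested members, and their median absolute log2 ratio was 0.86, against -0.00 and 0.28 over all genes. With libraries scaled to the ERCC spike-in RNAs, which moved the median of all genes by 0.17, the members split into 21 higher and 5 lower. The median of the tested members was 0.44 on that scale. IFIT3, one of the members that rose, passed the count filter through its SMARCB1 libraries alone. Its GFP libraries were at the floor, and at its bound it too lies above the median of 0.27. In dBRD9-A, a comparison that shares no library with the one in DMSO, 18 members rose and 7 fell (78.1% of those tested), where 63.3% of all genes were called (33.0% higher and 30.4% lower). Spike-in scaling, with a shift of -0.32, gave 14 higher and 12 lower there, with the median of the tested members at -0.01. The share of all genes called with spike-in scaling is not given here, so neither pair of counts is read as particular to the members. Of the members, 24 were called in both treatments and all 24 had the same sign, 17 higher and 7 lower, while 8685 of 8728 genes called in both (99.5%) had the same sign over the whole table.

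**Figure D1:**
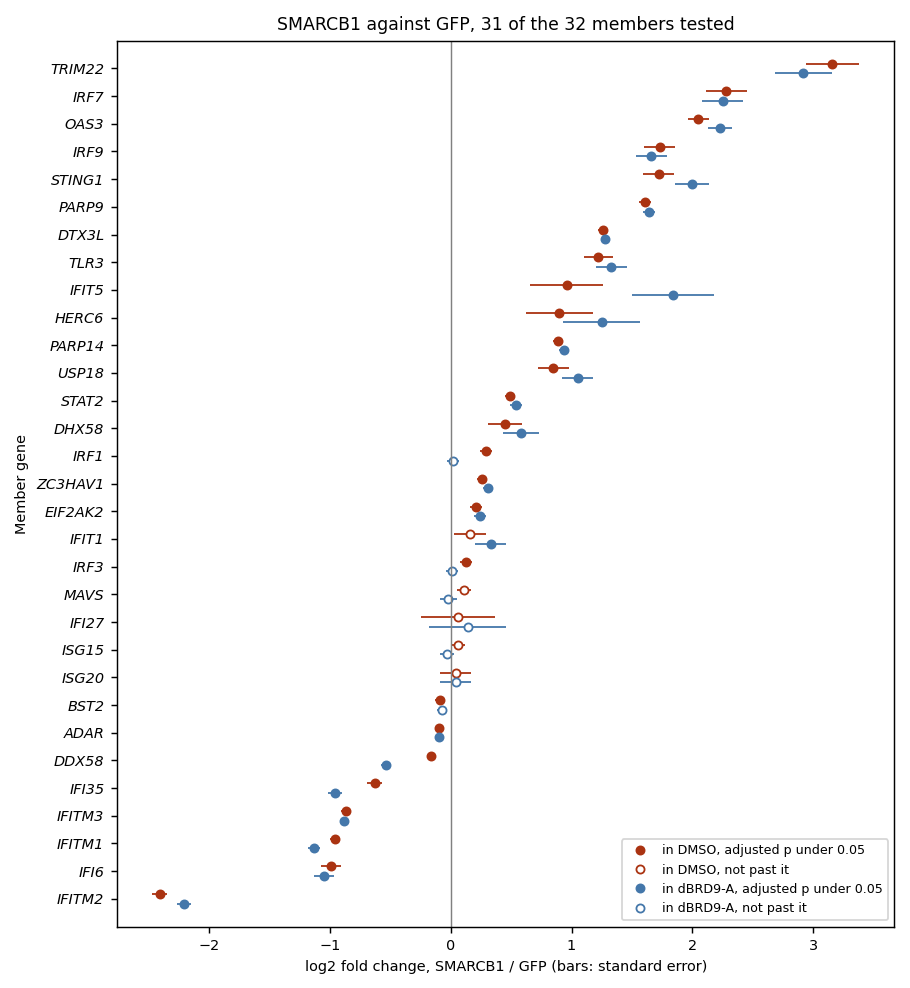
Log2 ratio of SMARCB1 over GFP cells (horizontal axis, bars are the standard error) for 31 of the 32 tested members, in DMSO (red) and in dBRD9-A (blue), with filled points past an adjusted p of 0.05. The values run from -2.41 for IFITM2 to 3.16 for TRIM22 in DMSO, and IFIT3 is left out because its GFP libraries were at the floor.

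All 5 transcription factors of the group were higher with SMARCB1 in DMSO, and IRF7, IRF9 and STAT2 were also higher in dBRD9-A. Over all genes tested, 33.5% were called higher in DMSO and 33.0% in dBRD9-A. IRF7, the factor that amplifies type I interferon transcription, had 0.675, 0.752 and 0.812 CPM in GFP cells in DMSO and 4.06, 3.08 and 3.73 CPM in SMARCB1 cells in DMSO. In dBRD9-A it had 0.795, 1.03 and 0.763 CPM in GFP cells and 3.41, 4.72 and 4.14 CPM in SMARCB1 cells. Every SMARCB1 library lay above every GFP library, with a log2 ratio of 2.28 (SE 0.17, adjusted p 1.61e-09) in DMSO and 2.25 (SE 0.17, adjusted p 2.61e-09) in dBRD9-A. IRF9, the DNA-binding part of the complex that recognises the ISRE, had 1.65, 2.45 and 1.73 CPM in GFP cells and 6.99, 6 and 6.09 CPM in SMARCB1 cells in DMSO. With dBRD9-A its values were 2.13, 2.11 and 2.23 CPM in GFP cells and 7.63, 6.82 and 5.96 CPM in SMARCB1 cells. The groups again did not overlap, and IRF9 rose by a log2 ratio of 1.73 (SE 0.13, adjusted p 2.57e-09) in DMSO and 1.66 (SE 0.13, adjusted p 6.72e-09) in dBRD9-A. In GENCODE 29, exons of IRF9 overlap those of AL136295.5 in sense, and the split of reads between them is uncertain.

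STAT2, the partner of IRF9, moved less. It had 20.6, 20.9 and 21.2 CPM in GFP cells and 30.1, 29.5 and 28.5 CPM in SMARCB1 cells in DMSO. Under the degrader its libraries held 20.2, 19.8 and 21.1 CPM in GFP cells and 31.4, 29 and 28.7 CPM in SMARCB1 cells. The SMARCB1 libraries were above the GFP libraries throughout, by a log2 ratio of 0.49 (SE 0.04, adjusted p 2.55e-08) and 0.54 (SE 0.05, adjusted p 9.63e-09). IRF1, a factor that also responds to interferon gamma, had 14.1, 13.7 and 14.4 CPM in GFP cells and 18.2, 16.2 and 17.2 CPM in SMARCB1 cells in DMSO. In the dBRD9-A libraries it had 14.7, 15.1 and 14.8 CPM in GFP cells and 14.8, 15.6 and 14.7 CPM in SMARCB1 cells. The IRF1 groups were apart in DMSO (log2 ratio 0.29, SE 0.05, adjusted p 9.23e-05) and overlapped in dBRD9-A (0.02, SE 0.05, adjusted p 0.782), where spike-in scaling gave -0.31 (adjusted p 0.00115). The difference between these IRF1 changes was -0.27 (SE 0.07) and did not pass the threshold (adjusted p 0.0545), but passed it with DESeq2's size factors (-0.28, adjusted p 0.0461) and without replicate 2 of SMARCB1 cells in DMSO (-0.31, adjusted p 0.0294) or in dBRD9-A (-0.30, adjusted p 0.031). With spike-in scaling it was -0.77 (adjusted p 2.48e-06).

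IRF3, the factor activated directly by the sensing kinases, had 28.2, 28.6 and 30 CPM in GFP cells and 31.4, 31.4 and 32.4 CPM in SMARCB1 cells in DMSO. Its groups did not overlap there, and the log2 ratio was 0.13 (SE 0.05, adjusted p 0.0167). In dBRD9-A it had 31.1, 31.7 and 28.6 CPM in GFP cells and 31.6, 31.4 and 29.3 CPM in SMARCB1 cells, with overlap and a log2 ratio of 0.01 (SE 0.05, adjusted p 0.813). Spike-in scaling gave IRF3 -0.31 there (adjusted p 0.000304). The IRF3 call in DMSO was lost without replicate 1 of GFP cells (0.11, adjusted p 0.0741) and without replicate 3 of SMARCB1 cells (0.12, adjusted p 0.0675).

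Sensors for RNA moved in both directions. TLR3, the endosomal receptor for viral RNA duplexes, had 3.23, 3.08 and 2.99 CPM in GFP cells and 7.07, 6.98 and 7.57 CPM in SMARCB1 cells in DMSO. With dBRD9-A its values were 2.08, 3.06 and 3.42 CPM in GFP cells and 7.78, 6.58 and 6.98 CPM in SMARCB1 cells. The SMARCB1 libraries stood above the GFP libraries in both treatments, by a log2 ratio of 1.22 (SE 0.12, adjusted p 8.09e-08) and 1.33 (SE 0.13, adjusted p 6.39e-08). DDX58, which encodes the helicase RIG-I, had 30.9, 30.9 and 32.9 CPM in GFP cells and 28.2, 28.5 and 28 CPM in SMARCB1 cells in DMSO. Under the degrader its libraries held 44.4, 44.2 and 45.8 CPM in GFP cells and 30.4, 30 and 31.9 CPM in SMARCB1 cells. DDX58 was lower in every SMARCB1 library, by a log2 ratio of -0.16 (SE 0.04, adjusted p 0.00147) in DMSO and -0.54 (SE 0.04, adjusted p 1.2e-09) in dBRD9-A. The fall in DMSO was not seen with spike-in scaling (0.01, adjusted p 0.938).

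DHX58, which encodes LGP2, a helicase that tunes the other sensors, had 1.35, 1.16 and 1.49 CPM in GFP cells and 1.96, 1.81 and 1.74 CPM in SMARCB1 cells in DMSO. In the dBRD9-A libraries it had 1.24, 1.34 and 1.24 CPM in GFP cells and 2.09, 1.68 and 1.98 CPM in SMARCB1 cells. The groups did not overlap, and DHX58 rose by a log2 ratio of 0.45 (SE 0.14, adjusted p 0.0107) and 0.58 (SE 0.15, adjusted p 0.00257). The rise in dBRD9-A did not pass the threshold with spike-in scaling (0.25, adjusted p 0.205). The other sensors were at the edge of detection. IFIH1, which encodes the RNA helicase MDA5, had 0 counts in the 3 GFP libraries in DMSO, and 6, 2 and 5 counts in SMARCB1 cells. In dBRD9-A, IFIH1 had 2, 0 and 1 counts in GFP cells and 7, 5 and 8 counts in SMARCB1 cells. Its mean there was at least 1.91-fold higher against the floor of 3 counts, a fold without allowance for counting error in SMARCB1 cells. CGAS, the sensor of cytosolic DNA, had 2, 1 and 0 counts in GFP cells and 5, 2 and 2 counts in SMARCB1 cells in DMSO, with overlap. It had 4, 0 and 0 counts in GFP cells and 2, 0 and 0 counts in SMARCB1 cells in dBRD9-A, where the groups overlapped as well. IFI16, a nuclear DNA sensor, had 0 to 1 counts in all GFP libraries, 7 to 11 in SMARCB1 cells in DMSO (at least 3.85-fold higher) and 6 to 11 in dBRD9-A (at least 2.29-fold higher).

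The adaptors parted. STING1, which relays the DNA signal at the endoplasmic reticulum, had 1.81, 1.72 and 1.4 CPM in GFP cells and 5.71, 5.22 and 5.26 CPM in SMARCB1 cells in DMSO. In dBRD9-A it had 1.08, 0.922 and 1.36 CPM in GFP cells and 4.75, 4.65 and 3.96 CPM in SMARCB1 cells. Every SMARCB1 library was above every GFP library, by a log2 ratio of 1.72 (SE 0.13, adjusted p 1.61e-09) in DMSO and 2 (SE 0.14, adjusted p 1.39e-09) in dBRD9-A. MAVS, the mitochondrial adaptor of the RNA helicases, had 34.3, 38.7 and 31.1 CPM in GFP cells and 35.1, 38.2 and 38.5 CPM in SMARCB1 cells in DMSO. With dBRD9-A its values were 35.3, 31.3 and 33.2 CPM in GFP cells and 32.6, 32.6 and 33.6 CPM in SMARCB1 cells. The MAVS groups overlapped in both treatments, and the log2 ratios of 0.11 (SE 0.06, adjusted p 0.138) and -0.02 (SE 0.07, adjusted p 0.847) did not pass the threshold. Without replicate 2 of GFP cells in DMSO the MAVS value in DMSO was 0.19 (adjusted p 0.00804). With spike-in scaling MAVS passed in both treatments with opposite signs, at 0.27 (adjusted p 0.00408) in DMSO and -0.34 (adjusted p 0.000379) in dBRD9-A.

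Of the 8 enzymes that are activated by RNA or act on it, 5 could be tested, and OAS3, EIF2AK2 and ZC3HAV1 were higher with SMARCB1 in both treatments (EIF2AK2 and ZC3HAV1 not with spike-in scaling in dBRD9-A). Of all genes tested, 33.5% were called higher in DMSO and 33.0% in dBRD9-A. OAS3, which makes the oligoadenylate messenger that activates RNase L, had 1.99, 2.3 and 2.37 CPM in GFP cells and 8.87, 9.53 and 9.07 CPM in SMARCB1 cells in DMSO. Under the degrader its libraries held 1.66, 2.11 and 2.09 CPM in GFP cells and 8.85, 9.39 and 9 CPM in SMARCB1 cells. OAS3 groups were far apart, with a 4.12-fold rise in DMSO (log2 ratio 2.05, SE 0.09, adjusted p 1.83e-12) and a 4.65-fold rise in dBRD9-A (2.23, SE 0.10, adjusted p 1.64e-12). Its neighbours in the same gene cluster, OAS1 and OAS2, had at most 3 counts in every library. EIF2AK2, the kinase PKR that halts translation, averaged 57.2 ± 3.68 CPM in GFP cells and 66.1 ± 4.22 CPM in SMARCB1 cells in DMSO (SD, n = 3), a log2 ratio of 0.21 (SE 0.05, adjusted p 0.00111). ZC3HAV1, the zinc finger protein that targets CpG-rich RNA, averaged 82 ± 3.53 and 97.8 ± 3.82 CPM (SD, n = 3), a log2 ratio of 0.26 (SE 0.04, adjusted p 7.79e-06). In dBRD9-A these genes rose by 0.24 (SE 0.05) and 0.31 (SE 0.04), but with spike-in scaling the values turned to -0.09 for EIF2AK2 and -0.01 for ZC3HAV1. ADAR, which edits adenosine to inosine in RNA duplexes, averaged 285 ± 9.98 CPM in GFP cells and 266 ± 10.1 CPM in SMARCB1 cells in DMSO (SD, n = 3), a log2 ratio of -0.10 (SE 0.03, adjusted p 0.0204). The ADAR call in DMSO was lost without replicate 2 of GFP cells or replicate 1 of SMARCB1 cells (both -0.07, adjusted p 0.105 and 0.107), and spike-in scaling turned its sign (0.07). In dBRD9-A the ADAR value was -0.10 (SE 0.03, adjusted p 0.0173), and it was lost without replicate 1 of GFP cells (-0.09, adjusted p 0.0603) or replicate 2 of SMARCB1 cells (-0.08, adjusted p 0.067). ISG20, an exonuclease, averaged 1.7 ± 0.0912 and 1.75 ± 0.0451 CPM in DMSO (SD, n = 3) and did not pass the threshold in either treatment.

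IFIT proteins bind viral RNA ends or translation factors and lie in 1 gene cluster. IFIT3 had 0 to 2 counts in all 6 GFP libraries, 17 to 30 with SMARCB1 in DMSO and 26 to 34 with SMARCB1 in dBRD9-A. Against a floor of 3 counts per library averaged over the GFP libraries, its mean was at least 8.36-fold higher with SMARCB1 in both treatments. IFIT3 passed the count filter through its SMARCB1 libraries alone. Its calls as higher in both treatments are in the counts of members that rose but are no separate support for this difference. IFIT5 averaged 0.282 ± 0.0329 CPM in GFP cells and 0.566 ± 0.147 CPM in SMARCB1 cells in DMSO (SD, n = 3), a 2.01-fold rise (log2 ratio 0.96, SE 0.30, adjusted p 0.00984). That call was lost without replicate 1 of SMARCB1 cells (0.78, adjusted p 0.0565). In dBRD9-A the IFIT5 rise was 3.6-fold (log2 ratio 1.84, SE 0.34, adjusted p 0.000133). IFIT1 averaged 2.39 ± 0.263 CPM in GFP cells and 2.68 ± 0.401 CPM in SMARCB1 cells in DMSO (SD, n = 3), with overlap and no call. In dBRD9-A its log2 ratio of 0.33 (SE 0.13, adjusted p 0.0399) passed narrowly and failed with DESeq2 (adjusted p 0.0968) and in 6 of 12 fits that left out 1 library (adjusted p 0.0304 to 0.136 over the 12). It was not called without the count filter (0.33, adjusted p 0.0621), and the IFIT1 value was 0.00 with spike-in scaling (adjusted p 0.99).

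ISG15, the ubiquitin-like protein that interferon strongly induces, did not pass the threshold with SMARCB1. It averaged 49.9 ± 2.41 CPM in GFP cells and 52.2 ± 3.45 CPM in SMARCB1 cells in DMSO (SD, n = 3), a log2 ratio of 0.06 (SE 0.06, adjusted p 0.38). With spike-in scaling ISG15 did pass, with opposite signs, at 0.23 (adjusted p 0.00826) in DMSO and -0.36 (adjusted p 7.44e-05) in dBRD9-A. USP18, the protease that removes ISG15 and restrains interferon signalling, averaged 1.89 ± 0.289 and 3.44 ± 0.13 CPM (SD, n = 3) and rose 1.82-fold (log2 ratio 0.85, SE 0.13, adjusted p 1.41e-05). HERC6, a member of the ligase family that attaches ISG15, averaged 0.418 ± 0.112 and 0.806 ± 0.125 CPM (SD, n = 3) and rose 1.93-fold (log2 ratio 0.90, SE 0.28, adjusted p 0.00957). In dBRD9-A, USP18 rose by a log2 ratio of 1.05 (SE 0.13) and HERC6 by 1.25 (SE 0.32).

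All 3 ADP-ribosylation genes were higher with SMARCB1 in both treatments, where 33.5% of all genes were called higher in DMSO and 33.0% in dBRD9-A. PARP9, which works as a heterodimer with the ubiquitin ligase DTX3L, had 8.31, 8.61 and 8.23 CPM in GFP cells and 25.9, 25.9 and 24.9 CPM in SMARCB1 cells in DMSO. In the dBRD9-A libraries it had 7.48, 8.06 and 7.63 CPM in GFP cells and 25, 22.9 and 24.5 CPM in SMARCB1 cells. PARP9 was thus about as far apart in both treatments, with a 3.05-fold rise (log2 ratio 1.61, SE 0.05, adjusted p 1.02e-14) and a 3.13-fold rise (1.64, SE 0.05, adjusted p 1.94e-14). DTX3L averaged 31 ± 0.351 CPM in GFP cells and 74.1 ± 4 CPM in SMARCB1 cells in DMSO (SD, n = 3), a 2.39-fold rise (log2 ratio 1.26, SE 0.04, adjusted p 4.34e-15). PARP14, a mono-ADP-ribosyltransferase encoded close by, had 63.2, 63.8 and 59.8 CPM in GFP cells and 111, 118 and 117 CPM in SMARCB1 cells in DMSO. Its groups did not overlap, and the log2 ratio was 0.89 (SE 0.04, adjusted p 3.39e-13). PARP9 and DTX3L overlap on opposite strands in GENCODE 29, and whether strand was used in counting is not given in the sources used here. Their summed level, computed after the data were seen, averaged 39.4 ± 0.55 CPM in GFP cells and 99.7 ± 3.42 CPM in SMARCB1 cells in DMSO (SD, n = 3), a log2 ratio of 1.34 (SE 0.03).

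Genes for membrane restriction factors went the other way: all 4 fell with SMARCB1 in DMSO (BST2 not with spike-in scaling) and IFITM1, IFITM2 and IFITM3 fell in dBRD9-A. Over all genes tested, 31.6% were called lower in DMSO and 30.4% in dBRD9-A. IFITM proteins sit in cell and endosomal membranes and hinder fusion of viral envelopes. IFITM2 had 38.1, 36.6 and 38.7 CPM in GFP cells and 7.25, 6.43 and 7.55 CPM in SMARCB1 cells in DMSO, which is 5.34-fold lower (log2 ratio -2.41, SE 0.06, adjusted p 2.51e-16). In dBRD9-A it had 32, 34.4 and 32.9 CPM in GFP cells and 6.66, 7.19 and 7.61 CPM in SMARCB1 cells, which is 4.63-fold lower (-2.21, SE 0.06, adjusted p 1.29e-15). The IFITM2 groups were apart in both treatments.

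IFITM1 had 69.7, 68.5 and 74.7 CPM in GFP cells and 36.9, 36.7 and 36.4 CPM in SMARCB1 cells in DMSO, and 65.6, 72.7 and 66.5 CPM against 31.3, 32.6 and 29.8 CPM in dBRD9-A. Its groups did not overlap, with a log2 ratio of -0.96 (SE 0.04, adjusted p 3.07e-12) in DMSO and -1.13 (SE 0.05, adjusted p 4.87e-13) in dBRD9-A. IFITM3 had 81.2, 77.2 and 83.5 CPM in GFP cells and 45.7, 42 and 44.6 CPM in SMARCB1 cells in DMSO, and 81.3, 89.5 and 85.9 CPM against 46.9, 46.4 and 45.8 CPM in dBRD9-A. It was lower in every SMARCB1 library, at -0.87 (SE 0.04, adjusted p 3.09e-12) in DMSO and -0.88 (SE 0.04, adjusted p 2.97e-12) with the degrader. The 3 genes are near-identical copies that can share reads, so the split between them is uncertain. Their sum, computed after the data were seen, averaged 189 ± 7.37 CPM in GFP cells and 87.8 ± 2.45 CPM in SMARCB1 cells in DMSO (SD, n = 3), a log2 ratio of -1.11 (SE 0.04). In dBRD9-A the sum changed by -1.14 (SE 0.04). BST2, which encodes tetherin, averaged 162 ± 8.73 and 152 ± 2.02 CPM in DMSO (SD, n = 3) with overlapping groups and a log2 ratio of -0.09 (SE 0.04, adjusted p 0.0373). The BST2 call was lost in 4 of 12 fits that left out 1 library (without replicate 1 or 3 of GFP cells, -0.09 and -0.05, or replicate 2 or 3 of SMARCB1 cells, -0.09 and -0.08), and spike-in scaling turned its sign (0.08). In dBRD9-A, BST2 had a log2 ratio of -0.07, which was not called, and -0.40 with spike-in scaling (adjusted p 1.35e-06).

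**Figure D2:**
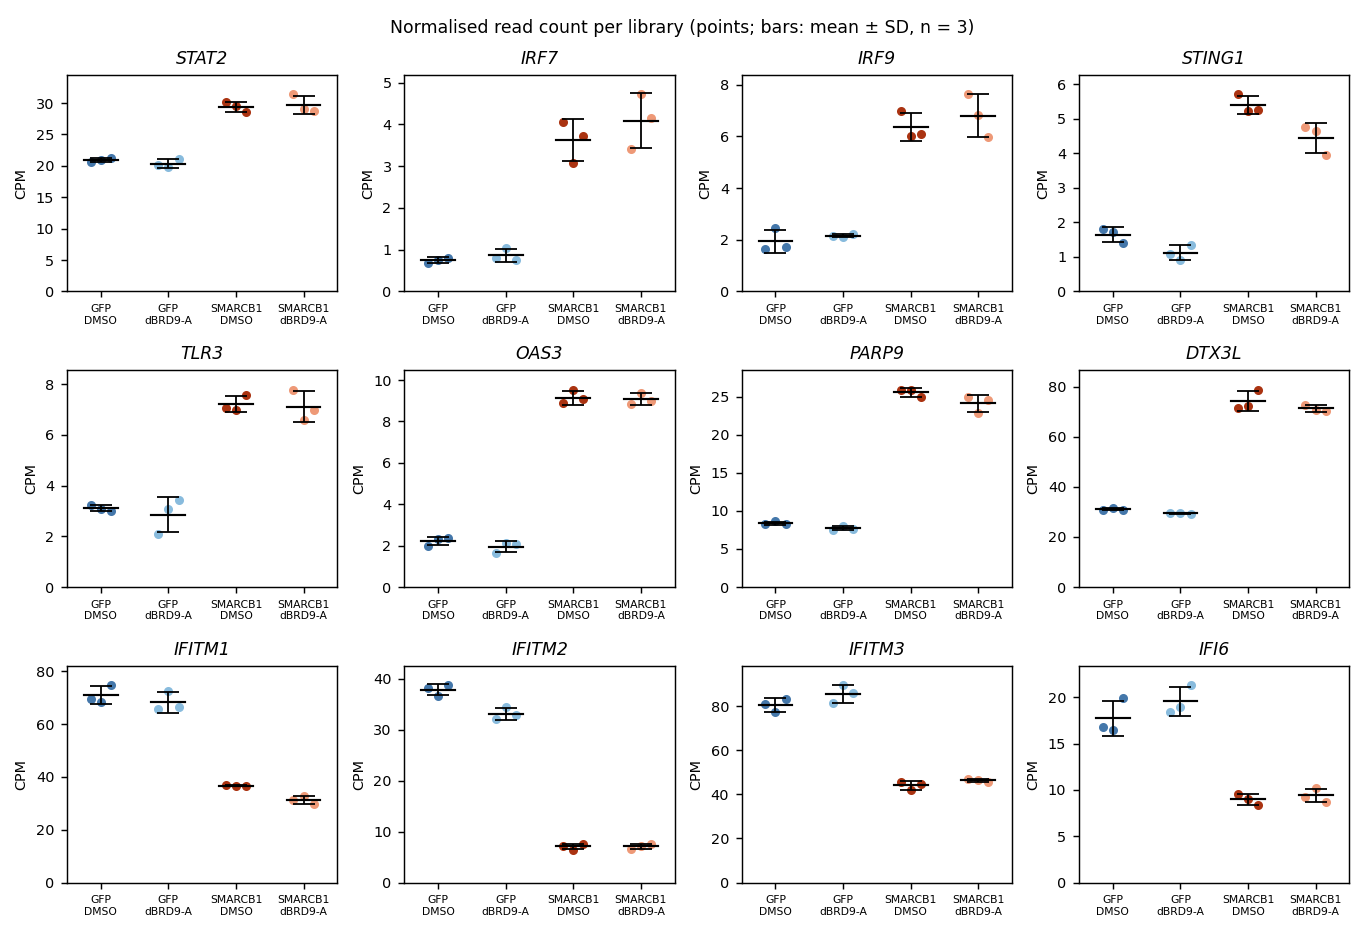
Normalised read count in CPM (vertical axes, from 0) in each library (points, with mean ± SD over 3 replicates) for 12 members in the 4 groups. IRF7, IRF9, STING1, TLR3, OAS3, PARP9 and DTX3L sit higher in both SMARCB1 groups, for example 8.38 against 25.6 CPM on average for PARP9 in DMSO, and IFITM1, IFITM2, IFITM3 and IFI6 sit lower.

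Among the other effectors, TRIM22 rose most of the members with a fold in DMSO, and IFI6 and IFI35 fell. TRIM22, a ubiquitin ligase with antiviral activity, had 0.373, 0.461 and 0.449 CPM in GFP cells and 4.03, 3.88 and 3.56 CPM in SMARCB1 cells in DMSO. With dBRD9-A its values were 0.421, 0.395 and 0.593 CPM in GFP cells and 4.8, 3.3 and 2.58 CPM in SMARCB1 cells. The groups did not overlap, with an 8.94-fold rise (log2 ratio 3.16, SE 0.22, adjusted p 1.02e-09) and a 7.58-fold rise (2.92, SE 0.24, adjusted p 6.87e-09). Exons of TRIM22 overlap the olfactory receptor gene OR56B1 on the same strand in GENCODE 29.

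IFI6, a mitochondrial and endoplasmic reticulum protein that limits cell death and flavivirus replication, had 16.8, 16.5 and 19.9 CPM in GFP cells and 9.55, 9.05 and 8.36 CPM in SMARCB1 cells in DMSO. Under the degrader its libraries held 18.4, 19 and 21.3 CPM in GFP cells and 9.27, 10.2 and 8.75 CPM in SMARCB1 cells. Each SMARCB1 library was below each GFP library, by a log2 ratio of -0.99 (SE 0.08, adjusted p 8.75e-09) and -1.05 (SE 0.08, adjusted p 4.95e-09). IFI35, a leucine zipper protein reported to act on RIG-I signalling, had 20.2, 19.1 and 21 CPM in GFP cells and 13.4, 12 and 13.5 CPM in SMARCB1 cells in DMSO. In the dBRD9-A libraries it had 23.6, 26.3 and 25 CPM in GFP cells and 13.1, 13.1 and 12.3 CPM in SMARCB1 cells. IFI35 groups were apart in both, with log2 ratios of -0.63 (SE 0.06, adjusted p 3.15e-08) and -0.96 (SE 0.06, adjusted p 1.37e-10). IFI27 averaged 0.34 ± 0.109 and 0.356 ± 0.0627 CPM in DMSO (SD, n = 3) and passed in neither treatment.

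The 17 members with too few counts to test include several genes that mark a strong interferon response. MX2, IFI44L, CMPK2 and RSAD2 had 0 counts in all 12 libraries, and MX1, OAS1, OAS2, IFI44, XAF1, HERC5 and SAMD9L never had more than 3 counts. MX1 and MX2 encode dynamin-like GTPases, and RSAD2 encodes viperin, which makes a chain-terminating nucleotide. IFIT2, OASL, IFI16, IFIH1, CGAS and SAMD9 exceeded 3 counts in some library, with a highest count of 11 for IFI16. SAMD9, a growth-restraining antiviral protein, had 0 to 1 counts in GFP libraries and 2 to 6 counts in SMARCB1 libraries. OASL, an OAS relative without synthase activity, had 0 to 1 counts in GFP libraries and 2 to 7 counts in SMARCB1 libraries. In a fit with no filter on low counts, 13 of the 17 entered the test, and IFIH1, IFI16, SAMD9 and OASL were called higher with SMARCB1 in DMSO (adjusted p 0.000782, 2.91e-06, 0.00352 and 0.0238). In dBRD9-A, IFIH1, IFI16 and SAMD9 were called higher (adjusted p 0.0272, 0.000199 and 0.0487). All these genes were at or under the floor in every GFP library. The share of all genes called without the filter is not given here, so these calls are not read as particular to the members.

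**Figure D3:**
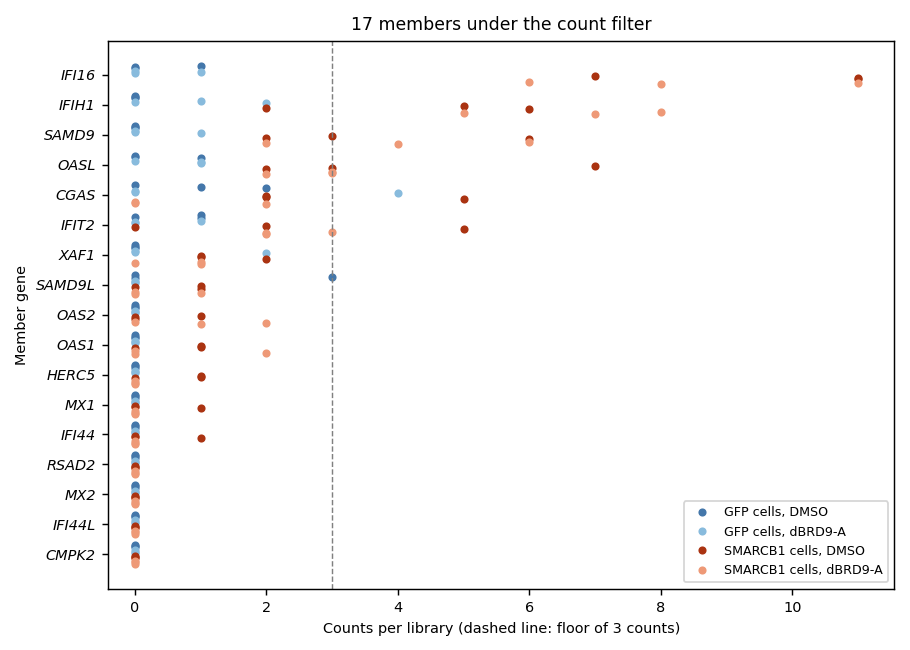
Counts per library (horizontal axis) of the 17 members under the count filter, one point per library and coloured by group, with the floor of 3 counts dashed. IFI16 reaches 11 counts and IFIH1 reaches 8 counts in SMARCB1 libraries, while 11 of the 17 members stay at or under the floor in every library.

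The comparison of dBRD9-A with DMSO in GFP cells asks which members move with the degrader where SMARCB1 is absent. DDX58 and IFI35 rose and STING1, IFITM2 and PARP14 fell, so 5 of 32 tested members were called (15.6%), where 15.9% of all genes were called (7.43% higher and 8.47% lower). DDX58, from 30.9, 30.9 and 32.9 CPM in DMSO, reached 44.4, 44.2 and 45.8 CPM in dBRD9-A, a 1.42-fold rise (log2 ratio 0.50, SE 0.04, adjusted p 5.54e-08). IFI35 rose from 20.2, 19.1 and 21 CPM to 23.6, 26.3 and 25 CPM (log2 ratio 0.31, SE 0.06, adjusted p 0.000807). For both genes all dBRD9-A libraries lay above all DMSO libraries, and both calls remained in all 12 fits that left out 1 library. STING1 fell from 1.81, 1.72 and 1.4 CPM to 1.08, 0.922 and 1.36 CPM (log2 ratio -0.56, SE 0.16, adjusted p 0.0269), IFITM2 from 38.1, 36.6 and 38.7 CPM to 32, 34.4 and 32.9 CPM (-0.19, SE 0.05, adjusted p 0.0121), and PARP14 from 63.2, 63.8 and 59.8 CPM to 53.2, 56.7 and 57.8 CPM (-0.16, SE 0.04, adjusted p 0.00825). Groups did not overlap for these genes, but none of the 3 calls remained without replicate 1 of GFP cells in dBRD9-A (-0.53, -0.17 and -0.12, adjusted p 0.0921, 0.0743 and 0.0623). The sum of IFITM1, IFITM2 and IFITM3, among which the split of reads is uncertain, had -0.02 (SE 0.04, adjusted p 0.778) here and did not pass.

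Other single libraries mattered as well. STING1 was not called without replicate 1 or 2 of GFP cells in DMSO (-0.47 and -0.53, adjusted p 0.114 and 0.0671) or replicate 2 in dBRD9-A (-0.44, adjusted p 0.124), and IFITM2 was not called without replicate 1 or 3 in DMSO (-0.19 and -0.17, adjusted p 0.0512 and 0.0655). Spike-in scaling shifted the median of all genes by 0.36 in this comparison, and the median of the tested members moved with it, from -0.06 to 0.30. The counts that follow therefore go with a shift of all genes and are not particular to the members. On that scale 17 of the 32 tested members had another sign, 21 were called higher and 0 lower, DDX58 and IFI35 included among the higher, with IFITM2 at 0.17, PARP14 at 0.20 and STING1 at -0.20 (adjusted p 0.343). This comparison shares its DMSO libraries with that of SMARCB1 in DMSO, where DDX58, IFI35 and IFITM2 had values of -0.16, -0.63 and -2.41 and STING1 and PARP14 had 1.72 and 0.89.

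**Figure D4:**
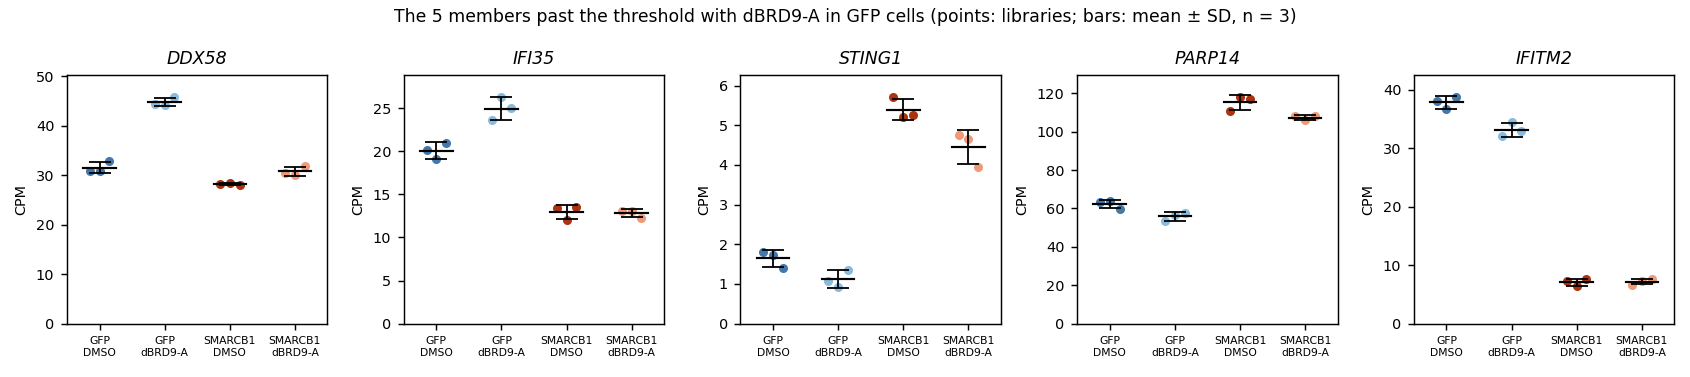
Normalised read count in CPM (vertical axes, from 0) in each library (points, with mean ± SD over 3 replicates) for the 5 members past the threshold with dBRD9-A in GFP cells. DDX58 stands at 44.8 CPM on average in GFP cells in dBRD9-A and between 28.2 and 31.6 CPM on average in the other 3 groups.

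In SMARCB1 cells, dBRD9-A gave 1 call among the 32 members, against 1.93% of all genes (0.679% higher and 1.25% lower). IFITM1 fell from 36.9, 36.7 and 36.4 CPM in DMSO to 31.3, 32.6 and 29.8 CPM in dBRD9-A. The groups did not overlap, with a log2 ratio of -0.23 (SE 0.05, adjusted p 0.0168). That call was lost in 5 of 12 fits without 1 library, with adjusted p up to 0.0785: those without replicate 1, 2 or 3 of SMARCB1 cells in DMSO (-0.22, -0.23 and -0.23) or without replicate 1 or 3 in dBRD9-A (-0.23 and -0.20). The sum of the 3 IFITM genes had -0.05 (SE 0.04, adjusted p 0.648) and did not pass. In edgeR, 0 members were called higher, with 1 higher and 5 lower at an unadjusted p under 0.05, and DESeq2 also called 0 higher. IRF1 was at 18.2, 16.2 and 17.2 CPM in DMSO and 14.8, 15.6 and 14.7 CPM in dBRD9-A without overlap, and its log2 ratio of -0.19 (SE 0.05) did not pass (adjusted p 0.0706). It passed without replicate 2 of SMARCB1 cells in DMSO (-0.24, adjusted p 0.0469) or in dBRD9-A (-0.23, adjusted p 0.0448), and with spike-in scaling (-0.34, adjusted p 0.0122). DDX58 and IFI35 had log2 ratios of 0.12 (SE 0.04, adjusted p 0.156) and -0.01 (SE 0.06, adjusted p 0.958) in these cells.

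**Figure D5:**
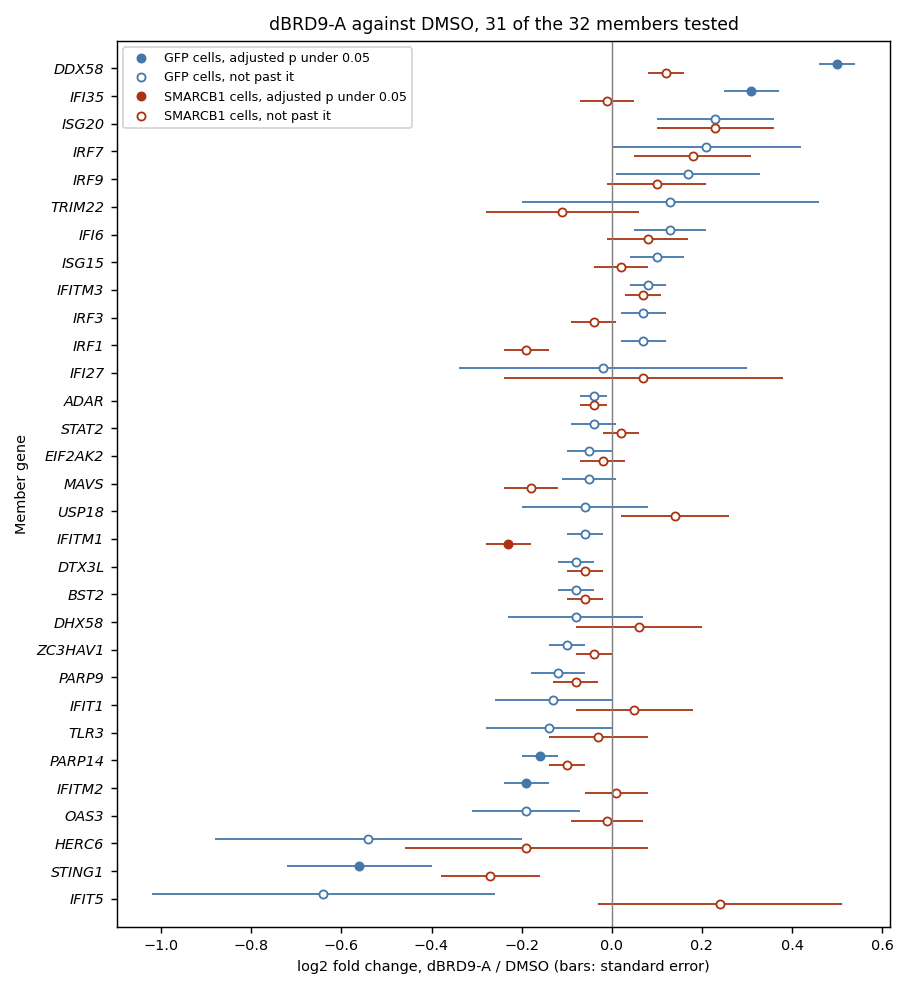
Log2 ratio of dBRD9-A over DMSO (horizontal axis, bars are the standard error) for 31 of the 32 tested members in GFP cells (blue) and SMARCB1 cells (red), with filled points past an adjusted p of 0.05. DDX58 at 0.50 in GFP cells lies farthest to the right, its value in SMARCB1 cells is 0.12, and IFIT3 is left out because its GFP libraries were at the floor.

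The difference between the dBRD9-A effects in SMARCB1 and GFP cells, tested as an interaction, passed for 2 of the 32 members, where 3.80% of all genes passed (2.15% higher and 1.65% lower). DDX58 had an interaction of -0.38 (SE 0.06, adjusted p 0.000448), since it rose in GFP cells by 0.50 and had 0.12 in SMARCB1 cells. This value stayed between -0.42 and -0.36 in the 12 fits that left out 1 library (adjusted p 0.000398 to 0.00222). IFI35 had an interaction of -0.32 (SE 0.08, adjusted p 0.0354), with 0.31 in GFP cells and -0.01 in SMARCB1 cells. Its call was lost in 8 of the 12 fits that left out 1 library, with values between -0.37 and -0.28 and adjusted p from 0.0194 to 0.107 over all 12. In edgeR, 0 members had a positive interaction past the threshold and 1 had one at an unadjusted p under 0.05, and DESeq2 gave 0 as well. With spike-in scaling, which shifted all genes by -0.49 here, the median of the tested members was -0.47. On that scale 20 members had a negative interaction past the threshold, which goes with the shift of all genes.

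The rest of the interferon pathway was read from 42 further genes, of which 25 could be tested, and 12 were higher and 5 lower with SMARCB1 in DMSO. These 17 are 68% of those tested, beside the 65.0% of all genes that were called. All 10 interferon genes listed, among them IFNB1 and IFNA1, had at most 2 counts in every library and none was tested. Of the 6 receptor genes, IFNAR2, IFNGR1, IFNGR2, IFNLR1 and IL10RB were higher in both treatments, where 33.5% of all genes were higher in DMSO and 33.0% in dBRD9-A. IFNLR1, the specific chain of the interferon lambda receptor, averaged 3.04 ± 0.113 CPM in GFP cells and 8.33 ± 0.774 CPM in SMARCB1 cells in DMSO (SD, n = 3), a log2 ratio of 1.45 (SE 0.09, adjusted p 8.52e-11). Its partner chain IL10RB rose by 0.78 (SE 0.06), and IFNGR1, a chain of the interferon gamma receptor, by 0.79 (SE 0.05). JAK1, the kinase bound to these receptors, had the opposite sign, averaging 257 ± 3.3 and 153 ± 4.92 CPM (SD, n = 3) with a log2 ratio of -0.75 (SE 0.03, adjusted p 6.3e-14), and TBK1, the kinase of IRF3, fell by 0.38 on the log2 scale (SE 0.04). IRF2, which competes with IRF1 at the ISRE, rose by 1 (SE 0.08). The feedback inhibitor SOCS1 rose by 0.59 (SE 0.11), while the other feedback gene listed, SOCS3, fell. Of the 9 kinases and signalling genes tested, 3 were higher and 3 lower in DMSO. Of the 3 genes tested in the list with IRF2, 2 were higher and 1 lower. With dBRD9-A, 4 of the 25 genes were higher and 2 lower in GFP cells, which is 24%, where 15.9% of all genes were called. TBK1 (0.20, SE 0.04) and SOCS3 were among the higher, and SOCS1 was among the lower (-0.53, SE 0.13). In SMARCB1 cells edgeR called 0 of the 25, where 1.93% of all genes were called, with 1 at an unadjusted p under 0.05, and DESeq2 called 0 as well.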

How the data were processed

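A Qiagen RNeasy Plus kit gave RNA from 12 G401 samples, which was made into poly-A selected stranded mRNA libraries (TruSeq), per the labels' protocols. STAR, RSEM 1.3.1, DESeq2 and the build GRCh37/hg19 are named, with no role given, in the submitters' processing notes. The authors deposited 3 tables of expected counts per gene, each for a pair of groups. The annotation and the use of strand are not given in the sources used here. RSEM shares reads that fit several genes, so values of overlapping or similar genes depend on that model. Counts were rounded to whole numbers, and symbols were matched for 51996 of 57820 identifiers. Libraries held 34.97 to 58.54 megacounts in genes (1e6 counts each), and 40 ERCC spike-ins (0.9634% to 1.302% of counts) were kept out of library sizes.

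Genes passing filterByExpr (minimum count 10) were tested in edgeR 4.0.16 (R 4.3.3) with TMM scaling (factors 0.9765 to 1.016) and a quasi-likelihood fit over all 12 libraries, each group having 1 coefficient. P-values were adjusted by Benjamini-Hochberg over 15750 genes, with a threshold of 0.05. Each alternative was adjusted over the genes of its own fit (28732 without the count filter), and its adjusted p is from edgeR unless DESeq2 1.42.0 is named. CPM values use TMM-scaled library sizes. A fold against a group at or under 3 counts is the mean of the higher group over that floor. It makes no allowance for counting error in the higher group, and PCR reads lacking molecular identifiers are not separate molecules. The code was tested on simulated data. Members and lists were chosen with earlier results of these data known. Values per library are given for the 6 members with the largest rise and fall per contrast (mean of at least 50 counts, groups apart), for interactions past the threshold, and for transcription factors, sensors and adaptors; others are given by group. Alternatives were DESeq2 and its size factors, spike-in scaling, no count filter, a replicate block, the libraries of a contrast alone, each library left out, and summed neighbouring genes. Replicate numbers did not pair the samples.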

Additional observations from a re-analysis of the deposited data

Results flagged for a closer look

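DDX58 and IFI35 stood out because dBRD9-A changed them differently in SMARCB1 cells and in GFP cells, by the interaction test in edgeR. The interaction of DDX58 was -0.38 (adjusted p 0.000448), with 31.6 ± 1.15 CPM in DMSO against 44.8 ± 0.839 CPM in dBRD9-A for GFP cells, and 28.2 ± 0.291 against 30.7 ± 1.04 CPM for SMARCB1 cells (SD, n = 3). That of IFI35 was -0.32 (adjusted p 0.0354), with 20.1 ± 0.948 CPM in DMSO against 25 ± 1.38 CPM in dBRD9-A for GFP cells, and 13 ± 0.811 against 12.9 ± 0.453 CPM for SMARCB1 cells (SD, n = 3), and it was lost in 8 of 12 fits that left out 1 library.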

How the results depend on the processing

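Spike-in scaling moved the most values, with a shift of the median of all genes of 0.17 and -0.32 for SMARCB1 in DMSO and in dBRD9-A, 0.36 and -0.14 for dBRD9-A in GFP and SMARCB1 cells, and -0.49 for the interaction. In the same order, the medians of the tested members on that scale were 0.44 and -0.01, 0.30 and -0.15, and -0.47. The share of all genes called on that scale is not given here, so the counts below are not read as particular to the members. With spike-in scaling 21 members were higher and 5 lower with SMARCB1 in DMSO, and 14 higher and 12 lower in dBRD9-A. With dBRD9-A, 21 were higher and 0 lower in GFP cells, 0 higher and 4 lower in SMARCB1 cells, and 20 had a lower interaction. Of the 32 tested members, 3 and 6 had another sign with it for SMARCB1 in DMSO and in dBRD9-A, 17 and 11 for dBRD9-A in GFP and SMARCB1 cells, and 17 for the interaction. Among them were DDX58 (0.01), BST2 (0.08) and ADAR (0.07) for SMARCB1 in DMSO, and IRF1 (-0.31), IRF3 (-0.31), EIF2AK2 (-0.09) and ZC3HAV1 (-0.01) in dBRD9-A. In GFP cells with dBRD9-A they included STAT2 (0.32), MAVS (0.30), IFITM2 (0.17) and PARP14 (0.20), and for the interaction STAT2 (-0.44). The cause was not tested. With no count filter, 2 members were lower with dBRD9-A in SMARCB1 cells. Over the 12 fits without 1 library, members higher and lower with SMARCB1 were 18 to 21 and 7 to 8 in DMSO, and 18 to 19 and 6 to 8 in dBRD9-A. With dBRD9-A, 2 were higher and 0 to 3 lower in GFP cells, 0 to 2 were lower in SMARCB1 cells, and 1 to 3 had a lower interaction. DESeq2's test changed 1 of 91 values of single genes (IFIT1), and fits to the libraries of a contrast alone, which were not made for the interaction, changed none of 80.

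With the replicate block, the interaction was past the threshold for 1 member (DDX58), IFI35 having an adjusted p of 0.0637, and BST2 in DMSO and IFIT1 in dBRD9-A (both adjusted p 0.0502) were lost as well. No other call of a member described singly changed. Deviations of libraries with the same number correlated at -0.056 to 0.061 over 18 pairs, against -0.054 to 0.074 for other pairs, so the numbers were not taken to pair the samples. Depth limits the 11 members at or under 3 counts in every library: differences in them were not detectable here.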

Other observations

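Gene order, taken from RefSeq with its assembly GRCh38.p14 and from neighbours looked up after the members' values were known, showed members that lie next to each other moving alike in some clusters. Among all genes tested for SMARCB1 in DMSO, 33.5% were called higher and 31.6% lower, so a neighbour called in the same direction is common. IFITM2, IFITM1 and IFITM3 lie in a row and all fell with SMARCB1 in DMSO, and the nearest tested genes on either side, PGGHG (-0.45, SE 0.08, adjusted p 0.00014) and B4GALNT4 (-0.75, SE 0.09, adjusted p 1.17e-06), fell too. PARP9, DTX3L and PARP14 rose by 1.61, 1.26 and 0.89 on the log2 scale, while the gene on one side, KPNA1, had 0.19 (SE 0.03) and the one on the other, HSPBAP1, had -0.28 (SE 0.07). Beside the IFIT cluster, LIPA, a lysosomal lipase gene whose exons overlap IFIT2 on the opposite strand, rose by 2.21 (SE 0.09, adjusted p 5.19e-13). FAS, a death receptor gene on the same side, rose by 1.78 (SE 0.23, adjusted p 2.52e-06). On the other side PANK1 had -0.05 (SE 0.04, adjusted p 0.296) and KIF20B had 0.20 (SE 0.03). Within the cluster IFIT1 was not called (0.16, SE 0.13, adjusted p 0.304). HERC6 rose by 0.90 (SE 0.28), with PPM1K at 0.32 (SE 0.13) on one side and PYURF at -0.29 (SE 0.04) on the other. In the OAS cluster OAS3 rose by 2.05 while OAS1 and OAS2 stayed at or under 3 counts in every library, and no test of neighbourhood was made. CD68, which made up nearly all of the summed markers of other cell types, averaged 171 ± 6.71 CPM in GFP cells and 59.5 ± 1.81 CPM in SMARCB1 cells in DMSO (SD, n = 3).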
